A study of Homo sapiens with 5 samples.

Results

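The heat shock chaperones examined here are 10 human genes, HSPA1A, HSPA1B, DNAJB1, HSPH1, HSPA8, HSP90AA1, HSPB1, CRYAB, HSPE1 and HSPD1, out of 32732 genes that the annotations of all 5 libraries share. They were chosen by their level across cells, because heat shock genes such as HSPA1A led a cluster of human cells in an earlier look at the same files, so that level is given as a description and without a test. All 10 were listed in every matrix, and all 10 passed the filter on low counts in every comparison below. Human brain organoids were grown from the embryonic stem cell line H9 carrying AAVS-ChR2-EYFP, a channelrhodopsin and yellow fluorescent protein cassette that every sample shares, including the organoids before grafting. Single cells were profiled on the 10x 3′ platform on day 42 of culture (D0) and from grafts in the prefrontal cortex (PFC) or hippocampus (HIP) of SCID-Beige mice at 2 or 4 months post transplantation (2MPT, 4MPT). The hosts were grafted as young adults and lack T and B lymphocytes and effective natural killer cells, but keep their own microglia. Each of the 5 conditions is 1 library, pooled from several organoids or host brains of a single cell line, so the only spread that can be measured is that between the libraries of 1 stage or site. D0 organoids were dissociated with TrypLE, whereas EYFP-bearing graft tissue was cut out and digested with Trypsin-EDTA and DNase, so stage and dissociation cannot be told apart between D0 and grafts.

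After filtering, 34390 human cells were retained, 4885 from D0 and 5952 to 8363 from each graft library. The median UMI count (distinct RNA molecules per cell) was 9847 in D0 and between 1253 (HIP_2MPT) and 2759 (HIP_4MPT) in grafts, while total human UMIs were 55892222 in D0 and between 11192237 and 21459173 in grafts. PFC_4MPT stood apart by its mitochondrial share, with a median of 7.31% against 2.35% to 3.77% elsewhere. Between 6 and 20 cell barcodes were shared by any pair of libraries. Levels are given as CPM, the UMIs of a gene per 1000000 human UMIs of the summed cells, with exact Poisson 95% intervals. Exact Clopper-Pearson 95% intervals are given for shares, and either kind covers counting error only. As expression is relative to the total, fewer cells of a kind and less RNA per cell cannot be told apart in these sums.

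Heat shock proteins are molecular chaperones, which bind unfolded proteins, keep them from aggregating and return them to folding. Under proteotoxic stress, the transcription factor HSF1 trimerises and binds heat shock elements, arrays of inverted GAA units in the promoters of the inducible genes, and HSP70 with its J-domain and nucleotide exchange partners then restrains HSF1 again. In the nervous system, neurons are known for a weak inducible HSP70 response, and glial cells for the stronger one.

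Promoter windows from RefSeq (GRCh38.p14, 250 bases before to 50 after each annotated start) were found for 9 of the 10 chaperones, as 13 windows, with no entry for CRYAB. The inducible pair HSPA1A and HSPA1B, their J-domain partner DNAJB1, the small heat shock protein gene HSPB1 and the constitutive HSPA8 are printed 5′ to 3′ on the strand of the gene, since their levels contrast below. Capitals mark the 2-unit heat shock motif, GAANNTTC or TTCNNGAA, each of which reads the same on both strands, so that overlapping matches merge into 1 run of capitals.
HSPA1A, chr6:31815293-31815592, plus strand: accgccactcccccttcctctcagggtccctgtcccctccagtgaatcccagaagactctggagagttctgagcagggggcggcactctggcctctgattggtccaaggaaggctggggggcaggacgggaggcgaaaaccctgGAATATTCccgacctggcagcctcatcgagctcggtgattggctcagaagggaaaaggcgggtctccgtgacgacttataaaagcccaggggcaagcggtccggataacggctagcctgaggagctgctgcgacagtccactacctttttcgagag
HSPA1B, chr6:31827488-31827787, plus strand: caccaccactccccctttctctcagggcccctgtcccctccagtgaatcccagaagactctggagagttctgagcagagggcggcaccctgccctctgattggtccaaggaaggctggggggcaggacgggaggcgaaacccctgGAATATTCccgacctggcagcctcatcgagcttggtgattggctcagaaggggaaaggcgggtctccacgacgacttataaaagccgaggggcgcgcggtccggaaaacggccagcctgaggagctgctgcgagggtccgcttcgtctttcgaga
DNAJB1, chr19:14518348-14518647, minus strand: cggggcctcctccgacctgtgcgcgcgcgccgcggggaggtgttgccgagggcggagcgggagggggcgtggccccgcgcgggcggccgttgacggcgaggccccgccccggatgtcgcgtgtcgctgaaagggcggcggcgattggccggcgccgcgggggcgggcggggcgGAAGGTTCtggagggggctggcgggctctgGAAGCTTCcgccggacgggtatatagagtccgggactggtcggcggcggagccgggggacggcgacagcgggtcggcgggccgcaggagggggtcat
HSPB1, chr7:76302423-76302722, plus strand: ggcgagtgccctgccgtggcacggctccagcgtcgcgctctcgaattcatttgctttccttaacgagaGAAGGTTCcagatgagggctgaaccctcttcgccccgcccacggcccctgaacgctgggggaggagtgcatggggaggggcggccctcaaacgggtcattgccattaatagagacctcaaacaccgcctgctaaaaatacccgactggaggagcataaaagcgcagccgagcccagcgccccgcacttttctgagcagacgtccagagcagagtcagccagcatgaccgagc
HSPA8, chr11:123062087-123062386, minus strand: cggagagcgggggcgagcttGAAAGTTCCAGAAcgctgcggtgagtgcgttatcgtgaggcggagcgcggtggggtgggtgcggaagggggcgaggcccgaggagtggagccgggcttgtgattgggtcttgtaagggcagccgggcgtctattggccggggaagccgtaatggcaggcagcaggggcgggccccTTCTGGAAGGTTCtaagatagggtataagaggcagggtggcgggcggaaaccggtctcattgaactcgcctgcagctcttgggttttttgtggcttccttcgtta
HSPA1A and HSPA1B carry the same 8 letters at position -106 and -105 from the annotated start. DNAJB1 has 2 matches in the window shown, the nearer at -47, and HSPA8 has 4, in overlapping pairs that form 2 motifs of 3 units, GAANNTTCNNGAA and TTCNNGAANNTTC. Among the chaperone windows, 8 of 13 (61.5%) held a 2-unit motif, against 4737 of 35116 promoters (13.5%), and 3 (23.1%) held a 3-unit motif, against 0.49% of all promoters. HSPE1 and HSPH1 had none in the window searched. A match is a description of the letters, not a binding site.

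HSPA1A and HSPA1B encode nearly the same stress-inducible HSP70 and lie next to each other on chromosome 6 (GRCh38, GENCODE v44), at 31815543 to 31817946 and at 31827738 to 31830254. HSPA1A stood at 49.3 CPM (47.5 to 51.2) in D0 and 51.2 (47.1 to 55.6) in HIP_2MPT, but at 362 (354 to 371) in HIP_4MPT, 446 (436 to 457) in PFC_2MPT and 468 (458 to 479) in PFC_4MPT. Thus 3 of the 4 graft libraries formed a high group, and HIP_2MPT, the shallowest library, lay in these sums at the level of the organoids before grafting. As a mean over cells, each cell weighing the same, HSPA1A was at 92.9 CPM in D0 and 50.15 in HIP_2MPT. HSPA1B followed another order in the sums, with 92.9 CPM in D0, 31.4 in HIP_2MPT, 165 in HIP_4MPT, 215 in PFC_2MPT and 223 in PFC_4MPT. As a mean over cells HSPA1B was highest in D0, at 196.8 CPM. In HIP_2MPT, HIP_4MPT, PFC_2MPT and PFC_4MPT that mean was 31.25, 147.2, 195.1 and 186.5. In D0 HSPA1B exceeded HSPA1A, with 0.531 HSPA1A UMIs for each HSPA1B UMI, whereas in grafts the ratio of their UMIs was 1.63 to 2.2. Of the 100-base runs in the HSPA1A transcript, 72.4% also occur in HSPA1B. In its last 500 bases, near which 3′ reads fall, 12.5% do, while of those in the last 500 bases of HSPA1B 0% occur in HSPA1A. Reads from a shared stretch cannot be told apart between the 2 genes, and counting was done under different annotations in D0 and in grafts. The part of this in their ratio was not tested.

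**Figure D1:**
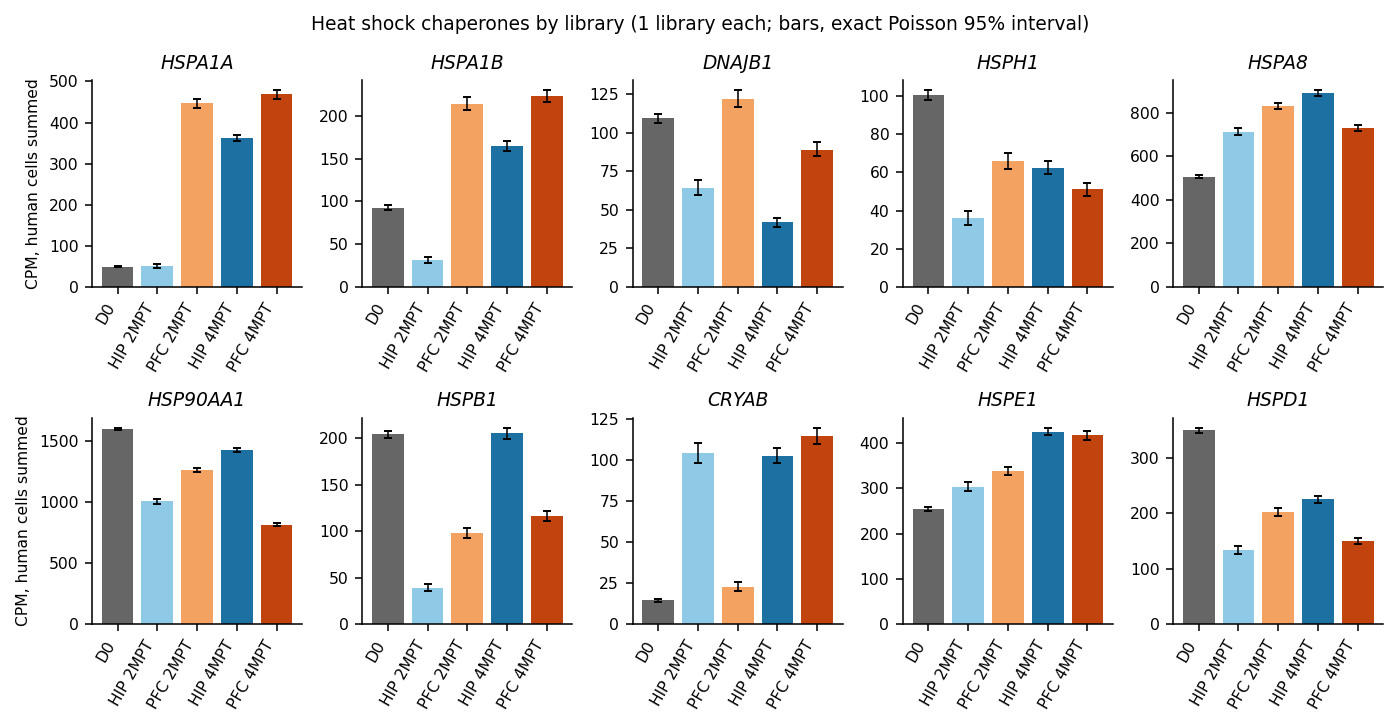
CPM of the 10 chaperones (vertical axis, linear from 0) in the 5 libraries, 1 bar per library, with exact Poisson 95% intervals. HSPA1A is at 49.3 and 51.2 CPM in D0 and HIP_2MPT and between 362 and 468 CPM in the other 3 graft libraries, while HSPA8 and HSPE1 are lowest in D0 and HSPD1, HSPH1 and HSP90AA1 are highest there.

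Among the partners of HSP70, DNAJB1, the J-domain protein that hands clients to it, measured 109 CPM in D0, 64.2 in HIP_2MPT, 41.9 in HIP_4MPT, 122 in PFC_2MPT and 89.1 in PFC_4MPT. HSPH1, the HSP110 that exchanges its nucleotide, measured 101 CPM in D0 and 36.1, 65.8, 62.4 and 51.1 in HIP_2MPT, PFC_2MPT, HIP_4MPT and PFC_4MPT, so every graft library was below D0. DNAJB1 was lower in HIP than in PFC at both stages, and in these sums did not separate D0 from grafts. As a mean over cells DNAJB1 was at 172.8 CPM in D0, above every graft library. In HIP_2MPT, PFC_2MPT, HIP_4MPT and PFC_4MPT that mean was 64.34, 108, 37.78 and 77.82. HSPA8, the constitutive HSC70 of unstressed cells, was at 506 CPM in D0 and at 712, 831, 891 and 731 in HIP_2MPT, PFC_2MPT, HIP_4MPT and PFC_4MPT, so every graft library was above D0. HSP90AA1, the inducible cytosolic HSP90, was at 1602 CPM in D0 and at 1007, 1265, 1429 and 818 in HIP_2MPT, PFC_2MPT, HIP_4MPT and PFC_4MPT.

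The small heat shock proteins, which hold unfolded clients without ATP, did not move together. HSPB1 (HSP27) was at 204 CPM in D0 and 205 in HIP_4MPT, but at 39.1 in HIP_2MPT, 98.0 in PFC_2MPT and 116 in PFC_4MPT. As a mean over cells HSPB1 was at 258.1 CPM in D0, above every graft library. In HIP_4MPT, HIP_2MPT, PFC_2MPT and PFC_4MPT that mean was 159.5, 38.68, 79.96 and 86.92. CRYAB (alpha B-crystallin, known from glia and lens) was at 14.6 CPM in D0 and 22.9 in PFC_2MPT, against 104 in HIP_2MPT, 103 in HIP_4MPT and 115 in PFC_4MPT. Counted against the human and mouse reference together, CRYAB was at 98.8, 22.3, 86.4 and 107 CPM in HIP_2MPT, PFC_2MPT, HIP_4MPT and PFC_4MPT, and mouse Cryab stood at 433 to 1428 CPM in host cells of the same libraries. Across all members the level in the dual reference was 0.842 to 1.01 times that in the human reference, CRYAB in HIP_4MPT being the lowest. The mitochondrial chaperonin pair, whose genes share a promoter region, also parted: HSPE1 (HSP10) was at 255 CPM in D0 and 303 to 425 in grafts, and HSPD1 (HSP60) at 349 in D0 and 134 to 225 in grafts. Summed over the 10 members, the level was 3283 CPM in D0, 2482 in HIP_2MPT, 3909 in HIP_4MPT, 3605 in PFC_2MPT and 3177 in PFC_4MPT, so the sum was lowest in HIP_2MPT and did not separate D0 from the grafts.

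To ask how the chaperones changed after transplantation, summed counts were compared between stages with edgeR's quasi-likelihood test over all genes. Since the members were chosen by their level across these same cells, their p-values between stages, here and below, are not independent of that choice. At 2MPT against D0, 4 of the 10 members passed an adjusted p of 0.05, in a comparison where 48.3% of 19074 genes did, so the members were called no more often than genes in general. CRYAB rose, by 1.75 ± 0.66 (log2 fold change ± SE; adjusted p = 0.0471), and HSPB1 (-1.92 ± 0.46, adjusted p = 0.00616), HSPD1 (-1.41 ± 0.33, adjusted p = 0.00516) and HSPH1 (-1.33 ± 0.34, adjusted p = 0.00882) fell. HSPA1A, at 249 ± 279 CPM over the 2 libraries (SD, n = 2), differed by 2.00 ± 0.91 with an adjusted p of 0.0923. Of the 6 members not called, the log2 fold changes ranged from -0.85 to 2.00 and adjusted p from 0.0631 upwards. Without PFC_2MPT the value of HSPA1A was -0.32, and HSPA1B (-1.94, against 0.07 with both libraries) and DNAJB1 (-1.14) were called lower. Without HIP_2MPT HSPA1A passed at 2.85, and without HIP_4MPT HSP90AA1 passed at -0.84; CRYAB was no longer called without HIP_2MPT (0.32), HIP_4MPT (1.76) or PFC_4MPT (1.81).

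At 4MPT against D0, again 4 of 10 members were called, beside 50.1% of all genes. HSPA1A rose by 2.78 ± 0.95 (adjusted p = 0.0316), from 49.3 CPM to 415 ± 74.9 (SD, n = 2), and CRYAB by 2.60 ± 0.69 (adjusted p = 0.00969), from 14.6 to 109 ± 8.41 CPM. HSPD1 fell by 1.20 ± 0.33 on the log2 scale (adjusted p = 0.0113) and HSPH1 by 1.13 ± 0.34 (adjusted p = 0.0187). HSPA8 (0.38), HSPE1 (0.43), HSPA1B (0.77), HSPB1 (-0.66), HSP90AA1 (-0.82) and DNAJB1 (-1.02) did not pass. Without PFC_4MPT only 1 member was called, DNAJB1 (-1.67), and HSPA1A (2.60), CRYAB (2.54), HSPH1 (-0.97) and HSPD1 (-0.91) lost their calls with little change in size. HSPA1B (0.78 and 0.77) and DNAJB1 (-1.02) were called in addition to the first 4 without HIP_2MPT or PFC_2MPT, and HSP90AA1 (-1.21) without HIP_4MPT. Of the genes called in these 2 comparisons, 56.2% and 57.2% were higher in grafts, and with library totals in place of TMM factors (0.826 for D0, 0.996 to 1.09 for grafts) 71.9% and 70.5% were, the median log2 fold change of all genes moving from 0.069 to 0.442 and from 0.080 to 0.396. On that scale HSPE1 changed direction at 2MPT (-0.02 to 0.35) and was called higher at 4MPT (0.74), and HSPH1 was not called at 4MPT (-0.81). D0 has 1 library, whose spread was taken from the others, and also differs from the grafts in dissociation, in the release of Cell Ranger and in annotation, which cannot be told apart from transplantation. The makeup of the cells differed too, by the classes set from marker genes below. Progenitor-like cells made up 45.2% of D0 and 5.18% to 10.3% of the graft libraries. In them HSPB1 was at 213 CPM in D0, 141 in HIP_2MPT and 278 in PFC_2MPT. The part of cell makeup in these changes was not tested.

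**Figure D2:**
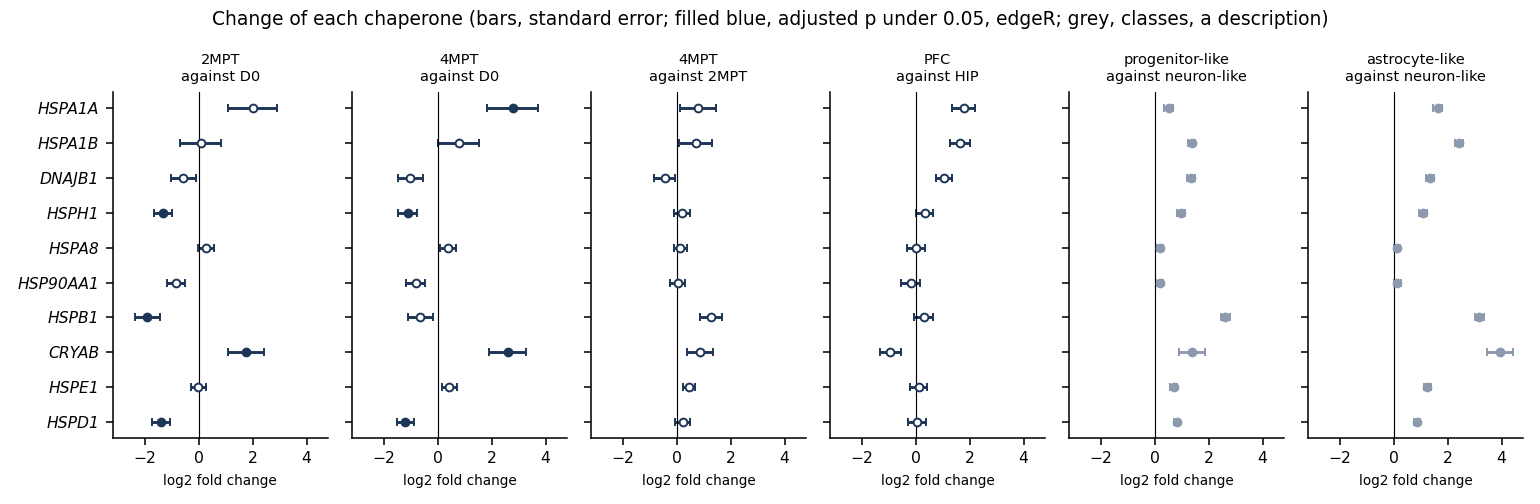
Log2 fold change of each chaperone (horizontal axis) in 6 comparisons, with standard error bars, filled blue where the adjusted p of edgeR's quasi-likelihood test was under 0.05; the comparisons of classes are in grey, as a description. Against D0, HSPA1A and CRYAB lie to the right and HSPH1 and HSPD1 to the left; between astrocyte-like and neuron-like cells all members lie to the right of 0, with HSPA8 (0.13) and HSP90AA1 (0.12) close to it.

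Genes known to respond to dissociation were also higher in sum in grafts. The 14 immediate early genes of the list used here summed to 2576 CPM in D0. In HIP_2MPT, PFC_2MPT, HIP_4MPT and PFC_4MPT they summed to 7305, 9728, 5605 and 8801 CPM. Their sum was thus lowest in D0 and high in HIP_2MPT, where summed HSPA1A lay at its D0 level. FOS rose by 1.98 at 2MPT and 2.07 at 4MPT, JUN by 2.15 and 1.42, and 6 of the 14 were called higher at either stage (beside 27.2% and 28.7% of all genes), with 3 called lower at 2MPT and 2 at 4MPT (beside 21.1% and 21.4%), led by IER3 (-4.43 and -5.73). In either direction 9 and 8 of the 14 were called, near the 48.3% and 50.1% of all genes. Their part in the level of the chaperones was not tested.

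Between 4MPT and 2MPT, no member passed the test (0 of 10 beside 2.40% of all genes), with 1 at an unadjusted p under 0.05 (and 1 called by DESeq2). The largest difference was that of HSPB1, at 68.6 ± 41.7 CPM at 2MPT and 161 ± 63.0 at 4MPT (SD, n = 2 each; log2 fold change 1.26 ± 0.40, adjusted p = 0.158), and the adjusted p of the others was higher. In this fit HIP and PFC stood as the replicates of each stage. With the graft site as a block, HSPA1A (1.50 ± 0.42, adjusted p = 0.0266), HSPA1B (1.27 ± 0.38, adjusted p = 0.0415) and HSPB1 (1.37 ± 0.36, adjusted p = 0.0164) passed, with 1 residual degree of freedom. More genes in general also passed with the block than without it. The p-values of the members here are likewise not independent of how the members were chosen. The unblocked values of the HSP70 pair, 0.79 and 0.70, were -0.06 and -0.10 without HIP_2MPT, and 3.11 and 2.71 (called, with HSPB1 at 2.10) without PFC_2MPT; CRYAB was called without HIP_2MPT (2.28).

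To compare graft sites, PFC was set against HIP in the 4 graft libraries with stage in the model. No member was called (0 of 10; also 0 with DESeq2), beside 15 of 17121 genes (0.0876%), while 4 members had an unadjusted p under 0.05. HSPA1A was 8.72 times as high in PFC as in HIP at 2MPT and 1.29 times at 4MPT (log2 fold change 1.78 ± 0.42, adjusted p = 0.0968). HSPA1B was 6.84 and 1.35 times as high (1.63 ± 0.38, adjusted p = 0.0876) and DNAJB1 1.90 and 2.13 times (1.05 ± 0.30, adjusted p = 0.372), so the HSP70 pair and DNAJB1 were each higher in PFC at both stages. CRYAB went the other way at 2MPT, at 0.22 times, and was 1.12 times as high in PFC at 4MPT. HSPE1 had nearly the same level at both sites (1.11 and 0.979 times). HSPA1A and HSPA1B passed the threshold without the filter on low counts, with a mitochondrial share under 0.10 or with a human share over 0.9. DNAJB1 was not called in any of these. With 1 library left out the fit held no stage, so site and stage are mixed there. The values of HSPA1A and HSPA1B were then 3.24 and 2.88 without HIP_4MPT, and 0.38 and 0.45 without HIP_2MPT. HSPA6, a strictly inducible HSP70 from the cochaperone list, was 1 of the 15 genes called (3.17 ± 0.64, adjusted p = 0.0181). It was at 3.50 and 3.56 CPM in the PFC libraries and 0.268 and 0.513 in the HIP libraries. In D0 HSPA6 was at 15.3 CPM, above every graft library, with log2 fold changes against D0 of -3.30 at 2MPT and -3.21 at 4MPT. HSPA6 is below the level set for naming and is named after its value was seen. With 4 libraries and 1 residual degree of freedom, the spread came largely from the trend over all genes. When heat shock genes were kept among the variable genes, HSPA1A and HSPA1B led a cluster held mostly by PFC cells. It had 234 cells of PFC_2MPT and 114 of PFC_4MPT, against 25 of HIP_2MPT, 19 of HIP_4MPT and 56 of D0. Since the members were chosen through such a cluster, their p-values between sites are not independent of that choice.

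The graft libraries also hold mouse host cells, 916 in HIP_2MPT, 2071 in HIP_4MPT, 772 in PFC_2MPT and 1202 in PFC_4MPT, which were handled together with the human ones. Mouse Hspa1a stood at 149 CPM of mouse UMIs (129 to 172) in HIP_2MPT, 76.1 (70.7 to 81.9) in HIP_4MPT, 748 (709 to 789) in PFC_2MPT and 367 (347 to 389) in PFC_4MPT. In the sum over host cells it was 5.02 and 4.83 times as high in PFC as in HIP at 2MPT and 4MPT. Hspa1b was 8.71 and 3.91 times and Dnajb1 1.33 and 4.79 times as high. For these genes the sums of both host and human cells were thus higher in the PFC library at each stage. Across stages the sums of the species differed, since Hspa1a was lowest in HIP_4MPT and human HSPA1A in HIP_2MPT. Constitutive Hspa8 differed less (1.68 and 1.65 times), and Hspe1 hardly (1.00 and 1.20 times). Host cells with at least 3 UMIs of microglial markers numbered 671 in HIP_2MPT, 1088 in HIP_4MPT, 514 in PFC_2MPT and 531 in PFC_4MPT. In them Hspa1a was at 179, 134, 986 and 612 CPM, in that order, so it was higher in PFC within this class at each stage. In the remaining host cells it was at 31.0 to 158, so the mouse total also depends on the makeup of the host cells. The part of makeup in the difference between sites was not tested. In these remaining cells Hspa1a was at 31.0 CPM in HIP_2MPT, 35.8 in HIP_4MPT, 65.5 in PFC_2MPT and 158 in PFC_4MPT. Their Dnajb1 was at 124 in HIP_2MPT and 95.1 in PFC_2MPT, and Hspa1b at 46.5 and 52.8, with overlapping intervals. At 4MPT their Dnajb1 was at 30.9 in HIP and 64.3 in PFC, and Hspa1b at 45.0 and 151. Human HSPA1A UMIs were found in 16 of 916 host barcodes (1.75%) of HIP_2MPT, 4.68% of HIP_4MPT, 3.11% of PFC_2MPT and 6.99% of PFC_4MPT, at a median of 54 to 241 human UMIs per barcode. In human cells of the same reference the shares were, in that order, 5.70%, 43.9%, 32.8% and 34.7%, at medians of 1253 to 2759 UMIs. Relative to the human UMIs in host barcodes, HSPA1A was at 107, 336, 489 and 280 CPM, near its level in human cells in PFC_2MPT and HIP_4MPT, above it in HIP_2MPT and below it in PFC_4MPT.

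**Figure D3:**
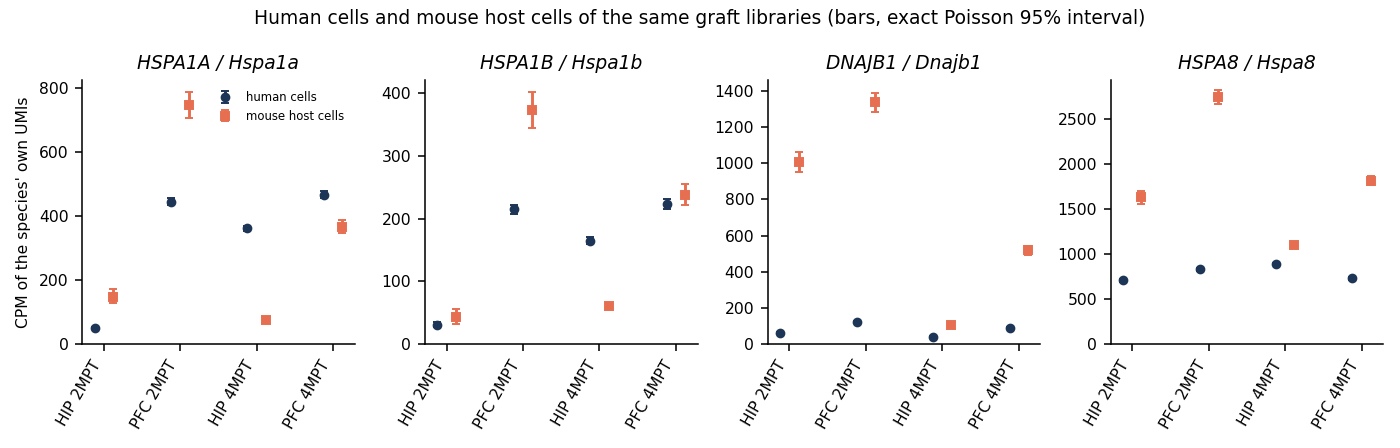
CPM of 4 chaperones in human cells (circles, of human UMIs) and of their counterparts in mouse host cells (squares, of mouse UMIs) in the 4 graft libraries, with exact Poisson 95% intervals. In both species HSPA1A and HSPA1B are higher in the PFC library than in the HIP library of the same stage, with Hspa1a at 748 and 367 CPM in PFC against 149 and 76.1 in HIP.

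Whether a few cells or many carry HSPA1A was examined after each cell was thinned to 1000 UMIs, which left out 171 to 1635 shallower cells a library and kept 4603 (D0), 6642 (HIP_2MPT), 5719 (PFC_2MPT), 6742 (HIP_4MPT) and 7381 (PFC_4MPT). At least 1 HSPA1A UMI was present in 4.71% of cells in D0 (4.12 to 5.37), 4.31% in HIP_2MPT (3.83 to 4.82), 23.3% in HIP_4MPT (22.3 to 24.3), 21.8% in PFC_2MPT (20.8 to 22.9) and 24.7% in PFC_4MPT (23.8 to 25.7). Without thinning the shares were, in that order, 16.8%, 5.72%, 44%, 32.9% and 34.8%, and the order of D0 and HIP_2MPT then follows their depth. Cells with high HSPA1A, set as at least 10 UMIs of 1000, were few: 2 in D0 (0.0435%), 0 of 6642 in HIP_2MPT (interval up to 0.0555%), 1 in HIP_4MPT (0.0148%), 5 in PFC_2MPT (0.0874%) and 5 in PFC_4MPT (0.0677%). The intervals of these shares overlap throughout. The highest cell held 18 UMIs in D0, 4 in HIP_2MPT, 12 in PFC_2MPT and HIP_4MPT and 16 in PFC_4MPT.

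At 5 or more HSPA1A UMIs of 1000, 11 cells of D0 (0.239%), 0 of HIP_2MPT, 50 of HIP_4MPT (0.742%), 109 of PFC_2MPT (1.91%) and 113 of PFC_4MPT (1.53%) were counted. The intervals of D0, HIP_4MPT, PFC_2MPT and PFC_4MPT were 0.119 to 0.427, 0.551 to 0.977, 1.57 to 2.30 and 1.26 to 1.84%, with up to 0.0555% for HIP_2MPT. They set both PFC libraries above HIP_4MPT, and HIP_4MPT above D0, as far as counting error goes. Of the HSPA1A UMIs counted before thinning, these cells held 11.1% in D0, 10.4% in HIP_4MPT, 20% in PFC_2MPT and 19.5% in PFC_4MPT. In the grafts most of the transcript thus lay in cells with fewer than 5 UMIs after thinning. Leaving the cells with 10 or more out moved the CPM of HSPA1A from 446 to 440 in PFC_2MPT and from 468 to 463 in PFC_4MPT. A lower limit takes in more of the transcript: cells with 3 or more UMIs were 5.61% of PFC_2MPT, 4.59% of PFC_4MPT and 2.37% of HIP_4MPT. They held 43.1%, 39.7% and 20.7% of its UMIs counted before thinning. The 5% of cells with the most HSPA1A UMIs before thinning held 46.3%, 48.3% and 40.1% in those libraries. No background share was taken off these values.

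**Figure D4:**
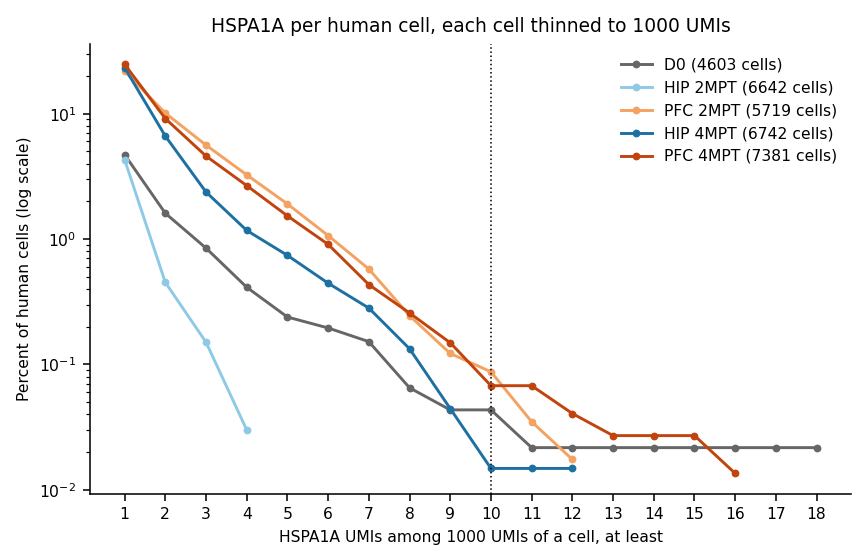
Percent of human cells (vertical axis, log scale) with at least the number of HSPA1A UMIs on the horizontal axis, after each cell was thinned to 1000 UMIs, for the 5 libraries; the dotted line marks 10 UMIs. PFC_2MPT, HIP_4MPT and PFC_4MPT start at 21.8% to 24.7% of cells, D0 and HIP_2MPT at 4.71% and 4.31%, and D0 alone reaches 18 UMIs.

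The few cells of D0 rich in HSPA1A were shallow ones. The 11 cells of D0 had a median of 2278 UMIs, against 10480 in cells without the transcript, and 6 of them fell in unnamed cluster 7, whose leading genes include DDIT4 and HSPA5. All 11 carried HSPA1B (5.18 UMIs a cell on average, 0.14 in cells without HSPA1A), and DNAJB1 (1.36 against 0.134), HSPH1 (1.36 against 0.114), HSPB1 (3.18 against 0.228) and HSP90AA1 (6.82 against 1.65) were higher as well. In the 113 cells of PFC_4MPT, HSPA1B was at 1.57 UMIs a cell against 0.12 and DNAJB1 at 0.31 against 0.0652, whereas HSPA8 (0.805 against 0.707) and HSP90AA1 (1.61 against 0.75) differed less. The 50 cells of HIP_4MPT had 1.02 HSPA1B UMIs against 0.114, and the 109 of PFC_2MPT 0.991 against 0.125. Their median UMI counts were 2173 in PFC_2MPT, 3130 in HIP_4MPT and 2171 in PFC_4MPT, against 2420, 2772 and 1945 in cells of those libraries without the transcript. These values are descriptions, since the cells were split by HSPA1A itself.

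Across thinned cells, Pearson's correlation between HSPA1A and HSPA1B was 0.37 in D0, 0.12 in HIP_2MPT, 0.19 in HIP_4MPT, 0.30 in PFC_2MPT and 0.32 in PFC_4MPT (4603 to 7381 cells of 1 library each). With DNAJB1 it was 0.28 in D0 and 0.031 to 0.12 in grafts, and with HSPB1 0.22 in D0 and 0.015 to 0.15 in grafts. Every other pair of members averaged 0.17 or less over the 5 libraries, and counts this sparse carry little information on a weak correlation. Among 7416 genes, the genes outside the 10 most like HSPA1A by the mean correlation included CLU (0.11), JUN (0.10), VIM (0.099), MT2A (0.099), TTYH1 (0.087), HES1 (0.086), PTN (0.085), PEA15 (0.069) and ID4 (0.066). In D0 CLU stood at 0.032 and ID4 at -0.041, against 0.21 and 0.16 in PFC_4MPT. Of the members, HSPA1B, DNAJB1, HSPB1 and HSP90AA1 ranked 1, 2, 4 and 5.

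Cell classes were set from marker genes after clustering without the members and the other chaperone and heat shock factor genes listed below. Of these, 16 would otherwise have been among the 2500 variable genes. The neuron-like class joins neuron clusters with the intermediate progenitor-like clusters 4, 11 and 17 (2218, 1281 and 398 cells). The progenitor-like class joins cycling progenitor-like and radial glia-like clusters. Neuron-like cells carried STMN2 at 2465 CPM (185 in progenitor-like, 234 in astrocyte-like cells), progenitor-like cells MKI67 at 172 CPM (6.98 in neuron-like cells) and astrocyte-like cells AQP4 at 308 and GFAP at 158 CPM (1.99 and 3.25 in neuron-like cells), while 13.5% to 32.4% of the cells of a library fell in clusters left without a name. Astrocyte-like cells made up 2.05% of D0, 4.40% of HIP_2MPT, 10.3% of HIP_4MPT, 7.09% of PFC_2MPT and 6.58% of PFC_4MPT. Metallothioneins (MT1E, MT2A) lead the astrocyte-like cluster 9, and JUN and NPAS4 stand among the leading genes of neuron-like cluster 0, so both named classes hold cells marked by stress or activity genes. In D0 most neuron-like cells (1060 of 1518) came from cluster 12, which holds 3 graft cells in all, so D0 was left out of the class comparisons. Neuron-like cells of HIP_2MPT and PFC_2MPT came mostly from clusters 0, 2 and 3, and those of PFC_4MPT mostly from cluster 0 (1095) and the inhibitory neuron-like cluster 10 (1081).

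Because the members were chosen by their level across these same cells, their levels by class are a description, with no test. In every graft library 9 of the 10 chaperones were higher in astrocyte-like than in neuron-like cells, and HSP90AA1 was in 3 of 4 (931 against 1027 CPM in HIP_2MPT). HSPA1A was at 168 against 38.2 CPM in HIP_2MPT, 794 against 237 in HIP_4MPT, 957 against 415 in PFC_2MPT and 1318 against 329 in PFC_4MPT, a higher level in 4 of 4 libraries. With the library as a block, the log2 fold change (± SE) was largest for CRYAB (3.94 ± 0.48), HSPB1 (3.17 ± 0.16) and HSPA1B (2.40 ± 0.14), followed by HSPA1A (1.62 ± 0.17), DNAJB1 (1.33 ± 0.14), HSPE1 (1.23 ± 0.13), HSPH1 (1.07 ± 0.15) and HSPD1 (0.85 ± 0.11). HSPA8, the constitutive HSC70, and HSP90AA1 differed by 0.13 ± 0.11 and 0.12 ± 0.13. The median was 1.28 over the 10 members and -0.03 over all 14072 genes. Given how the members were chosen, these medians are not read as a contrast.

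Averaged over the 4 graft libraries, CRYAB was at 33.6 ± 30.9 CPM (SD, n = 4) in neuron-like and 453 ± 249 in astrocyte-like cells, and HSPB1 at 47.0 ± 25.5 and 445 ± 183. The ratio of CRYAB between the classes was 5.29 in HIP_2MPT and 18.9 to 32.5 in the other 3, as its neuron-like level was 77.3 CPM in HIP_2MPT and 4.29 to 27.8 elsewhere. Human CRYAB was at 201 CPM of the human UMIs in host barcodes of HIP_2MPT, above its level in neuron-like cells there; the part of free RNA in that level was not tested. HSPE1 was at 296 ± 34.6 CPM in neuron-like and 765 ± 167 in astrocyte-like cells.

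Progenitor-like cells lay between the 2 classes for most members. Against neuron-like cells the difference was largest for HSPB1 (2.62 ± 0.15), at 141 against 21.4 CPM in HIP_2MPT, 417 against 76.6 in HIP_4MPT, 278 against 30.7 in PFC_2MPT and 234 against 59.2 in PFC_4MPT. CRYAB (1.37 ± 0.48), HSPA1B (1.36 ± 0.14), DNAJB1 (1.33 ± 0.14), HSPH1 (0.96 ± 0.15), HSPD1 (0.80 ± 0.11) and HSPE1 (0.70 ± 0.13) followed, and CRYAB was 0.78 without PFC_2MPT. HSPA1A differed by 0.50 ± 0.17 and was lower in progenitor-like cells of PFC_2MPT (382 against 415 CPM), with 0.31 without HIP_2MPT. HSPA8 (0.19 ± 0.11) and HSP90AA1 (0.18 ± 0.13) differed least here too.

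**Figure D5:**
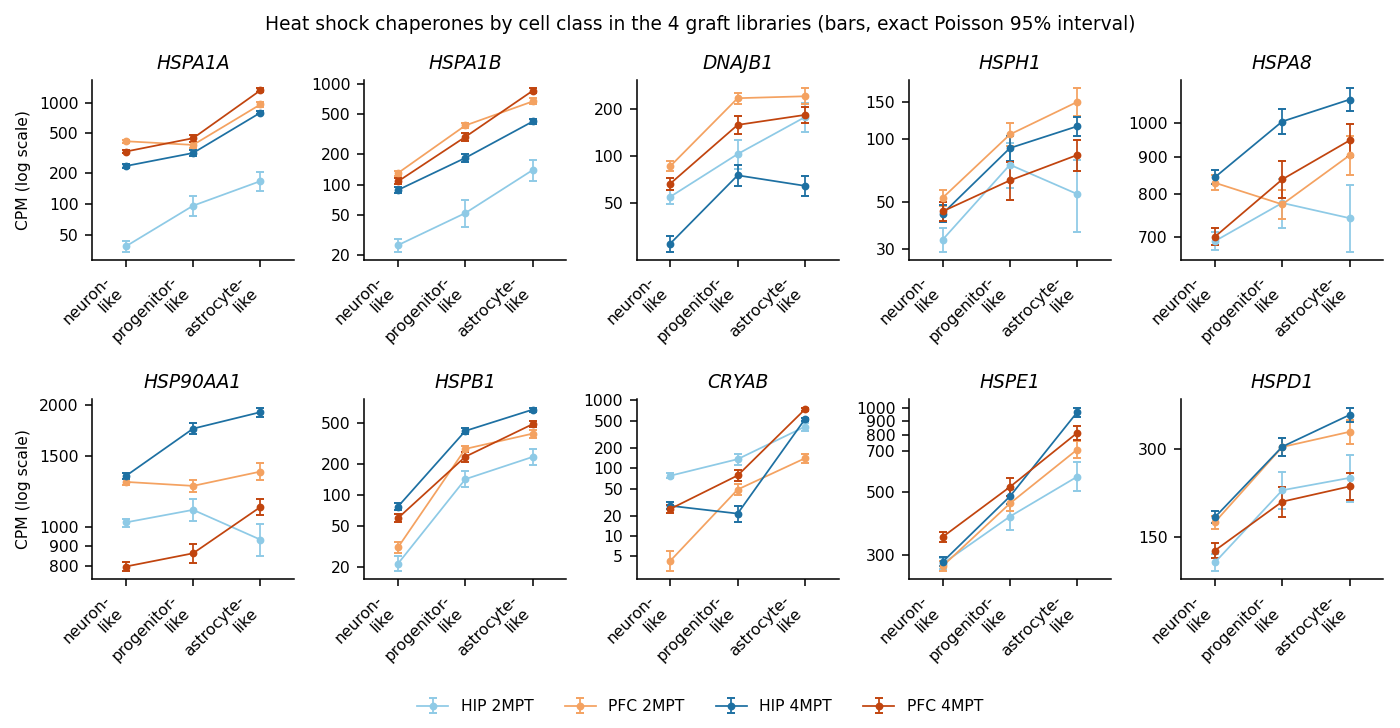
CPM (vertical axis, log scale) of each chaperone in neuron-like, progenitor-like and astrocyte-like cells, 1 line per graft library, with exact Poisson 95% intervals. HSPB1 climbs from 21.4 to 76.6 CPM in neuron-like cells to 233 to 671 CPM in astrocyte-like cells, while HSPA8 stays between 692 and 1075 CPM throughout.

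Oligodendrocyte-lineage-like cells were frequent at 4MPT, and HSPA1A stood there at 455 CPM (432 to 479) in HIP_4MPT and 548 (515 to 582) in PFC_4MPT, between the neuron-like and astrocyte-like levels of the same library. CRYAB was at 53.8 and 166 CPM in these cells. In D0, the choroid-plexus-like cells, recognised by TTR, had the highest HSPB1 (418 CPM) and CRYAB (80.6 CPM) of the named classes, and held 550 of the 815 CRYAB UMIs of that library. Among the named classes of D0, HSPA1A was at 30.7 CPM in neuron-like, 45.5 in progenitor-like, 41.2 in astrocyte-like and 74.5 in choroid-plexus-like cells. Unnamed cells, 13.5% of D0, are not in this range, and they were 54.55% of its thinned cells with 5 or more HSPA1A UMIs. No D0 level of HSPA1A in a named class reached that of the neuron-like cells of PFC_2MPT, HIP_4MPT or PFC_4MPT.

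The share of cells with 5 or more HSPA1A UMIs was higher in astrocyte-like than in neuron-like cells of 3 graft libraries. It was 5.46% of astrocyte-like cells in PFC_2MPT (3.45 to 8.15), 3.34% in HIP_4MPT (2.13 to 4.97) and 8.21% in PFC_4MPT (6.03 to 10.9), against 1.80%, 0.142% and 0.783% of neuron-like cells. Even so, in PFC_2MPT 58.7% of such cells were neuron-like and 20.2% astrocyte-like, whereas in HIP_4MPT 10.0% and 46.0% and in PFC_4MPT 25.7% and 38.9% were. In astrocyte-like cells at least 1 UMI was seen in 8.89% (HIP_2MPT), 29.0% (PFC_2MPT), 41.3% (HIP_4MPT) and 50% (PFC_4MPT) of cells, and in neuron-like cells in 3.66%, 21.9%, 19.1% and 21.5%.

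Stage was then compared within a class, with the same limit on p-values from the choice of the members. In neuron-like cells 1 of 10 members passed between 4MPT and 2MPT, beside 1.33% of all genes, namely HSPB1 (1.44 ± 0.27, adjusted p = 0.0364), at 21.4 and 30.7 CPM at 2MPT and 76.6 and 59.2 at 4MPT in HIP and PFC. The makeup of the class also moved with stage. Its inhibitory neuron-like cluster 10 held 14 and 18 cells at 2MPT and 245 and 1081 at 4MPT in HIP and PFC. Over all libraries HSPB1 was at 132 CPM in cluster 10 and at 18.5, 23.1 and 11.7 in clusters 0, 2 and 3. The part of this makeup in the call was not tested. This call was lost without HIP_2MPT (1.19; CRYAB then passed at 2.67), HIP_4MPT (1.29) or PFC_4MPT (1.58), while without PFC_2MPT HSPA1A (2.97), HSPA1B (2.06), HSPB1 (1.75) and CRYAB (-1.46) passed. None of 10 passed in progenitor-like cells (0.631% of all genes; 0 members at an unadjusted p under 0.05) or in astrocyte-like cells (3.14%; 3 members at an unadjusted p under 0.05). In astrocyte-like cells the largest values were those of CRYAB (1.31 ± 0.39, adjusted p = 0.102) and HSPB1 (0.94 ± 0.29, adjusted p = 0.121). HSPA1A differed by 0.95 ± 0.53 there and by 0.38 ± 0.74 in neuron-like cells. In progenitor-like cells HSPA1B, HSPA1A, HSPB1 and CRYAB differed by 2.38, 2.16, 1.36 and -1.31 without PFC_2MPT, and CRYAB by -1.93 without PFC_4MPT. In astrocyte-like cells CRYAB differed by 2.21, 1.52 and 1.04 without HIP_2MPT, HIP_4MPT and PFC_4MPT. DNAJB1 differed there by -0.95 without HIP_2MPT and -1.65 without PFC_4MPT. Without PFC_2MPT and HIP_4MPT, HSPA1A differed by 2.73 and 1.26 and HSPA1B by 2.28 and 1.1. HSPB1 differed by 1.4 without PFC_2MPT and 1.15 without PFC_4MPT.

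Genes of other chaperone systems were called lower after grafting more often than higher, where 21.1% and 21.4% of all genes were called lower at 2MPT and 4MPT and 27.2% and 28.7% higher. Of 22 cochaperones and related genes, 1 was called higher and 13 lower at 2MPT against D0, and 1 and 11 at 4MPT, with medians of -0.93 and -0.82 (0.07 and 0.08 over all genes). SERPINH1, the collagen chaperone, fell by 3.36 and 2.34 on the log2 scale, HSPA4L, an HSP110 relative, by 2.01 and 1.50, and PTGES3 (p23) of the HSP90 cycle by 1.51 and 1.01. HSP90AB1, the constitutive HSP90, fell by 1.46 and 1.30, from 1462 CPM in D0 to 546 to 927 in grafts. DNAJA4 was the gene called higher, at 0.0537 CPM in D0 and 0.606 to 1.88 in grafts; it was named after its value was seen.

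Of the CCT chaperonin, which folds actin and tubulin, 7 of 8 subunits fell at each stage, led by CCT6A (-1.61 and -1.77). Of 12 endoplasmic reticulum chaperones 7 fell at each stage, CANX by 2.09 and 1.79 and HSPA5 (BiP) by 1.34 and 1.29. Of 6 mitochondrial chaperones 3 fell at 2MPT and 4 at 4MPT, HSPA9 (mortalin) by 1.43 and 1.37. HSF1, the regulator of the heat shock response, fell by 1.10 ± 0.28 and 0.91 ± 0.28 (adjusted p = 0.00889 and 0.0211) and HSF2 by 0.82 and 1.15; no gene of these lists other than DNAJA4 was called higher. Of the members, CRYAB was called higher at both stages and HSPA1A at 4MPT. HSPD1 and HSPH1 were called lower at both stages and HSPB1 at 2MPT. The medians over the 10 members were -0.30 and -0.14.

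Between classes the lists are given by their counts, and no difference between lists was tested. In astrocyte-like against neuron-like cells, where 24.9% of all genes were called higher and 25.1% lower, 12 of 21 cochaperones tested were higher and 1 lower, with SERPINH1 (3.59), HSPA4L (1.29) and DNAJB4 (1.43) among them, and 9 of 12 endoplasmic reticulum chaperones were higher and 0 lower, CANX by 1.26 and HSPA5 by 1.15. Of the 8 CCT subunits 3 were lower (TCP1 -0.80, CCT8 -0.57, CCT2 -0.32) and 1 was higher (CCT3, 0.44). Of 4 heat shock factor genes 2 were lower, HSF2 among them (-0.96). Of the immediate early genes 5 were higher and 4 lower, among them ZFP36 (4.40), ATF3 (1.29) and NR4A1 (1.10) above and DUSP1 (-1.38) below. In progenitor-like against neuron-like cells, where 22.7% of all genes were called higher and 24.3% lower, 11 of 21 cochaperones, 4 of 8 CCT subunits and 9 of 12 endoplasmic reticulum chaperones were higher, with 1, 0 and 1 lower.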

How the data were processed

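Single human cells of 1 D0 and 4 graft libraries were measured as UMI counts. The authors deposited unnormalised UMI counts per gene and cell from Cell Ranger (3.1.0 for D0 and 5.0.0 for grafts per the file headers), against a human reference and, for grafts, also a combined human and mouse reference; the handling of intronic reads is not given in the sources used here. Cells were kept with over 500 UMIs and 500 genes, a log10 gene to log10 UMI ratio over 0.80, a mitochondrial share under 0.15 and a human share over 0.8; host cells had a human share under 0.2. No doublet caller was run. Cells were normalised with sctransform 0.4.2 and clustered in Seurat 5.3.0 (40 components, resolution 0.8). The members and the chaperone and heat shock factor lists were left out of the variable genes, which removed 16 genes. Classes were named from marker lists. UMIs were summed per library, or per library and class, and tested with edgeR 4.0.16 (quasi-likelihood, TMM, Benjamini-Hochberg over all genes); DESeq2 1.42.0 was an alternative. From each other list, up to 4 genes with the largest change among those called at a mean of at least 10 CPM in a comparison could be named, and the 10 non-members most correlated with HSPA1A were, except 1 that is not reported here; other exceptions are stated. The scripts were tested on simulated data. Members, lists and tests were chosen with earlier results of these data known, and 3 alternatives (library totals, graft libraries only, 3 or more UMIs) after seeing the data. Nothing in the labels shows separate replicates within a condition, so p-values measure the spread between libraries of different sites or stages.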

Additional observations from a re-analysis of the deposited data

Results flagged for a closer look

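The level in PFC over that in HIP went opposite ways at the 2 stages for 6 members, with 1 library on each side, and the difference between stages was not tested. It was 1.82 at 2MPT and 0.82 at 4MPT for HSPH1, 1.17 and 0.82 for HSPA8, 1.26 and 0.573 for HSP90AA1, 2.51 and 0.566 for HSPB1, and 1.5 and 0.667 for HSPD1, all higher in PFC at 2MPT and in HIP at 4MPT. CRYAB went the other way, at 0.22 and 1.12.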

How the results depend on the processing

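Recomputed changes were counted for the members called in a comparison and for some others given singly, not for every member. Outside this set, HSPE1 changed direction at 2MPT against D0 with library totals. CRYAB in neuron-like cells, also outside it, took either sign without 1 library. Of 312 changes in the set, 266 kept their direction and side of the threshold, 20 gained a call, 22 lost one and 4 reversed. The reversals were HSPA1A and HSPA1B without PFC_2MPT at 2MPT against D0 and without HIP_2MPT at 4MPT against 2MPT. Without 1 library, the first comparison gave -0.32 to 2.85 for HSPA1A and -1.94 to 0.88 for HSPA1B, and the second -0.060 to 3.11 and -0.10 to 2.71. The cause of the other moves was not tested. With 1 library left out, the fit of PFC against HIP held no stage. Members called at 4MPT against 2MPT numbered 0, but 1 with DESeq2, 2 without the filter, 3 with the graft site as a block and 0 to 3 without 1 library; genes numbered 457, but 1347 without the filter, 738 with the block and 32 to 1508 without 1 library. For PFC against HIP, members numbered 0, but 2 without the filter, with mitochondrial share under 0.10 or human share over 0.9, and 0 to 2 without 1 library; genes numbered 15, but 7 with DESeq2, 36 without the filter, 23 with mitochondrial share under 0.10, 4 with over 1000 UMIs, 30 with human share over 0.9, 0 with no stage in the fit and 0 to 12 without 1 library. Neuron-like cells gave 203 genes, but 396 with DESeq2, 116 with heat shock genes among the variable genes and 103 to 717 without 1 library, and 1 member, but 0 at resolution 1.6 or with heat shock genes among the variable genes and 0 to 4 without 1 library. Progenitor-like cells gave 74 genes and 143 to 388 without 1 library (members 0 to 4), and astrocyte-like cells 367, but 219 with DESeq2 and 356 to 737 without 1 library (members 2 to 3). Without 1 library, members numbered 3 to 6 at 2MPT and 1 to 6 at 4MPT against D0, and genes 7750 to 8968 and 6791 to 10490 against D0. The share of cells with high HSPA1A was, in D0, PFC_2MPT, HIP_4MPT and PFC_4MPT, 0.239%, 1.91%, 0.742% and 1.53% at 5 UMIs, 0% in each at 20, and 0.217%, 0.245%, 0.119% and 0.42% with HSPA1A and HSPA1B summed; at 3 UMIs it was 0.847%, 0.151% (HIP_2MPT), 5.61%, 2.37% and 4.59%, and without thinning 0.0168% in PFC_2MPT and 0% in HIP_4MPT. HSPA1A as a mean over cells was 92.9 CPM in D0, 348 in HIP_4MPT and 437 in PFC_4MPT. No paired analysis was possible because each condition has 1 library and the groups share fewer than 2 replicate numbers; the graft site as a block, over 4 libraries with 1 residual degree of freedom, is the nearest fit. Depth limits the shares in HIP_2MPT most, where 1635 cells lay under 1000 UMIs.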
